A study of Mus musculus with 12 samples.

Results

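The 9 genes described here are the HIF factors Hif1a and Epas1, the HIF prolyl hydroxylases Egln1 and Egln3, and the hypoxia targets Vegfa, Adm, Bnip3, Ankrd37 and Ndrg1. They were taken by symbol, 9 of the 55335 genes listed, and followed through RNA-seq of 12 libraries, in 4 groups of 3, of dendritic cells derived from mouse bone marrow (BMDCs). BMDCs were grown from the marrow of C57BL/6 mice, male and female and 8 to 12 weeks old, that carried CreER at Rosa26 and an intact Ctcf gene. Marrow was cultured with GM-CSF for 6 days with fresh medium every 2 days, and floating cells were selected with CD11c microbeads, so every group shares the transgene, the culture and the selection. WT received no stimulus, WTL received lipopolysaccharide (LPS, 100 ng/ml for 3 h), WT + JSH23 received JSH-23 (100 µM for 3 h), and WTL + JSH23 received JSH-23 for 3 h as a pre-treatment and then LPS. JSH-23 is a small molecule that keeps RelA, a subunit of NF-κB, out of the nucleus. The study's text describes 4-hydroxytamoxifen at the start of culture for deleting Ctcf and can be read either way for cells with intact Ctcf. Whether the solvent of JSH-23 was given to WT and WTL and whether animals were pooled was not found in the sources used here. Replicates of WT and WTL carry the numbers 4 to 6 and those of the JSH-23 groups 1 to 3, with no culture date, so a difference of culture batch and the effect of JSH-23 cannot be told apart.

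HIF-1α and HIF-2α, encoded by Hif1a and Epas1, are transcription factor subunits that are made continuously and destroyed while oxygen is plentiful. The EGLN enzymes hydroxylate them, the VHL ubiquitin ligase recognises the hydroxylated proline, and the proteasome removes the protein. When oxygen falls, the subunits escape this mark, pair with ARNT and bind hypoxia response elements of genes for angiogenesis, mitophagy and glycolysis. In myeloid cells LPS is known to raise Hif1a transcription through NF-κB under normal oxygen, which is why these genes are of interest in cells given LPS and an NF-κB inhibitor. The libraries report mRNA alone, and no HIF protein or oxygen level was measured.

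Libraries held between 24664724 and 34837847 counts, with 3.15% to 3.64% of counts from mitochondrial genes. Levels within a gene are given in CPM, the counts relative to each library's total after scaling with TMM factors (trimmed means of M values), and changes are log2 fold changes with standard errors (SE) and adjusted p values from the edgeR quasi-likelihood test. The 11 dendritic cell markers summed to 15550 to 15800 CPM in WT, 18220 to 19270 in WTL, 14740 to 15110 in WT + JSH23 and 16260 to 17600 in WTL + JSH23, with Cd209a under 1 CPM on average in every group. Cd74, H2-Aa and H2-Ab1 made up most of this sum, at means of 8387, 2559 and 2060 CPM in WT, so it mainly follows these genes. Single markers could differ from it. With LPS, 8 of the 10 tested rose and 1 fell, Batf3, from 18.8 CPM in WT to 14.3 in WTL. The 10 macrophage markers summed to 2748 to 2928 CPM in WT, 3238 to 3313 in WTL, 2275 to 2301 in WT + JSH23 and 2694 to 2836 in WTL + JSH23. The 10 neutrophil markers summed to 74.0 to 78.0, 84.1 to 85.7, 64.0 to 67.5 and 63.0 to 65.2 CPM in the same order, with Ly6g, Elane and Cxcr2 under 1 CPM in every group. The 11 markers of other cell types summed to 0.797 to 1.31, 1.16 to 1.77, 0.647 to 0.983 and 0.517 to 0.778 CPM, with Hba-a1 at 0 throughout. These sums moved with LPS and with JSH-23, as did the genes below, and their part in the changes was not tested. In bulk RNA, fewer cells of a type and less RNA per cell cannot be told apart. Replicate 3 of WTL + JSH23 stood apart from its group, with a scaled squared difference of counts of 9.03 and 10.08 to the other libraries of the group, where 1 is counting noise and all other pairs within a group lay between 2.41 and 4.85.

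LPS moved the 9 genes in opposite directions. Hif1a, Egln3, Adm and Ndrg1 rose in WTL against WT, while Egln1, Vegfa, Bnip3 and Ankrd37 fell, and Epas1 did not pass the test. Of the 9 genes tested, 4 were higher and 4 lower at an adjusted p under 0.05, beside 31.0% of all 14357 genes tested that were higher and 34.7% that were lower. At more than 2-fold, Hif1a, Egln3, Adm and Ndrg1 were higher and Vegfa and Ankrd37 lower, beside 7.36% and 9.09% of all genes. The median log2 change of the 9 genes was 0.15 and that of all genes -0.05. In cells given JSH-23, 4 of the 9 rose and 2 fell with LPS, beside 27.4% and 27.1% of all genes, and the medians were 0.67 and -0.02. More than 2-fold changes were then seen in Egln3 and Adm, which rose, and in Vegfa, which fell, beside 5.85% and 4.49% of all genes. All 9 passed the filter on low counts, though Adm reached the minimum of 0.359 CPM in all 3 libraries only in the groups given LPS, Ankrd37 only in the groups without LPS and Epas1 only in WTL + JSH23, so the values of these 3 genes rest on low counts.

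**Figure D1:**
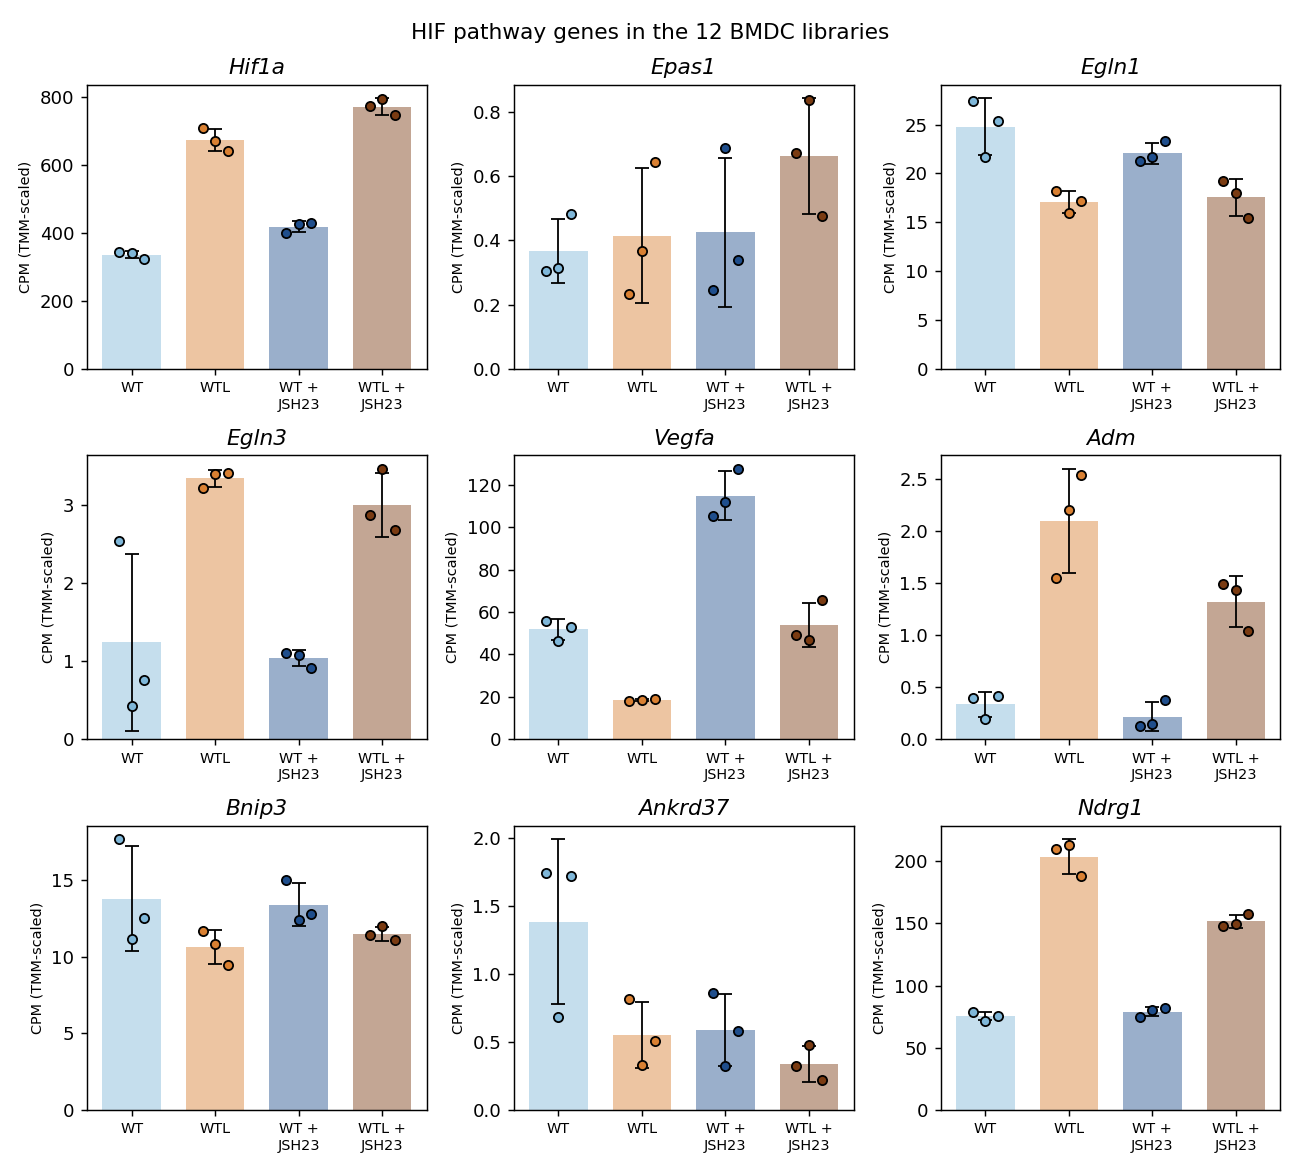
CPM (linear axes from 0, scaled per gene) of the 9 genes in WT, WTL, WT + JSH23 and WTL + JSH23. Points are libraries, bars means and error bars SD over 3 libraries. Hif1a and Ndrg1 stand higher in both LPS groups, and Vegfa is lower with LPS and higher with JSH-23.

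Hif1a (ENSMUSG00000021109.13, chromosome 12, 73901375 to 73947530, + strand, GRCm38) stood at 342.6, 340.0 and 324.2 CPM in WT and at 707.5, 670.1 and 642.0 CPM in WTL. With JSH-23 the libraries read 398.8, 426.4 and 428.2 CPM without LPS and 772.5, 794.8 and 747.0 CPM with it. The groups did not overlap in any of the 4 comparisons, and the lowest library of the study was an untreated one and the highest one had received both agents. LPS raised Hif1a by 1.00 on the log2 scale (SE 0.0424, adjusted p = 8.8e-15) and, with JSH-23, by 0.89 (SE 0.0422, adjusted p = 1.28e-13). The 2.01-fold rise sat at the 2-fold line. On the deposited TPM, which are not rescaled between libraries, the LPS change of Hif1a was 0.65 on the log2(TPM + 1) scale, where the median of all genes was shifted to -0.26. RSEM divided reads of Hif1a with other genes in all 12 libraries, and the protein-coding gene Gm49321 and the antisense gene Gm15283 overlap it.

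Epas1 (ENSMUSG00000024140.10, chromosome 17, 86753700 to 86833410, + strand), the gene for HIF-2α, was close to the detection limit, with 6 to 21 counts per library. It read 0.306, 0.313 and 0.483 CPM in WT, 0.233, 0.367 and 0.645 in WTL, 0.246, 0.687 and 0.340 in WT + JSH23, and 0.673, 0.836 and 0.475 in WTL + JSH23. The libraries of every pair of groups compared overlapped. The log2 change by LPS was 0.15 (SE 0.449, adjusted p = 0.786) without JSH-23 and 0.67 (SE 0.408, adjusted p = 0.175) with it, so a change was not detectable at this depth. Without WT + JSH23 replicate 2 the latter change of Epas1 was 1.18 (adjusted p = 0.0384). Its sign turned on the TPM scale, where the LPS change was -0.14 at log2(TPM + 1).

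The hydroxylases moved against each other. Egln1 (ENSMUSG00000031987.6, chromosome 8, 124908587 to 124949324, - strand) encodes PHD2, the main oxygen-dependent brake on HIF-1α. It fell from 27.4, 21.7 and 25.3 CPM in WT to 18.2, 15.9 and 17.1 CPM in WTL, and stood at 21.3, 21.6 and 23.3 CPM in WT + JSH23 and 19.2, 17.9 and 15.5 CPM in WTL + JSH23. Every library with LPS lay below every library without it. The log2 change was -0.54 (SE 0.0845, adjusted p = 9.67e-06) and, with JSH-23, -0.32 (SE 0.0858, adjusted p = 0.00307).

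Egln3 (ENSMUSG00000035105.5, chromosome 12, 54178981 to 54203860, - strand) encodes PHD3, a hydroxylase that is itself induced by HIF. It had 15 to 102 counts per library and read 2.54, 0.427 and 0.759 CPM in WT, 3.22, 3.40 and 3.41 in WTL, 1.11, 1.09 and 0.919 in WT + JSH23, and 2.87, 3.46 and 2.68 in WTL + JSH23. LPS libraries lay above those without LPS in both settings, but WT replicate 4 stood well above the other untreated libraries. The rise was 1.43 on the log2 scale (SE 0.338, adjusted p = 0.0009) and, with JSH-23, 1.53 (SE 0.358, adjusted p = 0.00106). Without WT replicate 4 the LPS change was 2.52 (adjusted p = 1.78e-08). That library was the highest of the 3 untreated ones for 7 of the 9 genes, beside 30.8% of all genes, a count made after the values were seen. The share was 47.1% of the HIF pathway components tested, 58.1% of the other hypoxia targets and 55.0% of the glycolytic hypoxia targets.

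The bases before the start sites of 5 HIF-regulated genes are shown because Egln3 and Adm rose with LPS while Vegfa, Bnip3 and Ankrd37 fell. RefSeq promoters (GRCm38.p6) were matched by symbol for 7 of the 9 genes, and the 250 bases before the first start listed were searched on both strands for ACGTG and GCGTG, the core that HIF binds. Capitals mark these letters, which read CACGT or CACGC where the match is on the other strand. Each stretch is printed up to the first base inside an annotated exon. A palindrome CACGTG counts as a match on each strand.
Egln3 (chr12:54203875-54204124, - strand): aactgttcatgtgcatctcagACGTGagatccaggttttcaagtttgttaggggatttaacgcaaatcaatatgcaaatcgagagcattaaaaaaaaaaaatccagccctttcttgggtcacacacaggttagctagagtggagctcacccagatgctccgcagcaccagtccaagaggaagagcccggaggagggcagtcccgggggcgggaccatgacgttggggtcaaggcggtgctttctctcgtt
Adm (chr7:110627407-110627656, + strand): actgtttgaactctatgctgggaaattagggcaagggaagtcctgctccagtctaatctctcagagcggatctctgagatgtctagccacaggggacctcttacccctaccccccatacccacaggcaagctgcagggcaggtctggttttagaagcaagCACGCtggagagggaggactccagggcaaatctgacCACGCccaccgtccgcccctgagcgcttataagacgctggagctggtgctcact
Vegfa (chr17:46032378-46032627, - strand): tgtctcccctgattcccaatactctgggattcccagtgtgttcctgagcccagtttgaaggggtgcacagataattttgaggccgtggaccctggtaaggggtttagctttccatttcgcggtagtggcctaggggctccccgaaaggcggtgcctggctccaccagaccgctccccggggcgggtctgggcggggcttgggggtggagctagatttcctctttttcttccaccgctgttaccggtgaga
Bnip3 (chr7:138909520-138909756, - strand): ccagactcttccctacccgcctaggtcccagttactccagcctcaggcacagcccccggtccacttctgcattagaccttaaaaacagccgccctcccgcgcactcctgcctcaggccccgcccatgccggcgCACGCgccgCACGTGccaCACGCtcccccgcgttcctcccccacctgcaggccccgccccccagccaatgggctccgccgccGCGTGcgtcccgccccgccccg
Ankrd37 (chr8:45999868-46000100, - strand): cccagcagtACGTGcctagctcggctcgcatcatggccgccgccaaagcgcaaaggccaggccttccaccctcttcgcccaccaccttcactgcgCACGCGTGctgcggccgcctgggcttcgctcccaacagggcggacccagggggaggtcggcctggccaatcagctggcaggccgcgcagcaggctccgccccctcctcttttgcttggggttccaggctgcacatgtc
In the 250 bases there was 1 match for Egln3, 2 for Adm, 0 for Vegfa, 5 for Bnip3 and 4 for Ankrd37, of which 3 lie in the printed stretch. At least 1 match was found in 38.6% of 32851 RefSeq promoters of that length, 16.6% for ACGTG and 28.2% for GCGTG. Hif1a had 3 matches and Egln1 had 2. RefSeq lists another start site for Vegfa, and the 250 bases before it held 2 core matches and no κB motif. They are not shown because only the first start listed is printed, and they begin inside an annotated exon. The window of the first Vegfa start held a stretch that matches the κB motif on both strands, though its letters are not an exact palindrome. The κB motif was found in 7.3% of promoters and in none of the first-start windows of the other 6 genes. A match is only a string of letters and says nothing on whether HIF or NF-κB was bound, and no match says only that these letters are not in this window.

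Vegfa (ENSMUSG00000023951.17, chromosome 17, 46016993 to 46032369, - strand) encodes the vascular endothelial growth factor A and is a textbook HIF target. It read 55.9, 46.6 and 53.1 CPM in WT, 17.9, 18.5 and 19.1 in WTL, 105.1, 111.9 and 127.5 in WT + JSH23, and 49.0, 46.9 and 65.6 in WTL + JSH23. No 2 groups in the 4 comparisons overlapped, and the libraries given both agents overlapped the untreated ones. The LPS change of Vegfa was -1.49 on the log2 scale (SE 0.107, adjusted p = 8.21e-11), or 2.8-fold lower, and with JSH-23 -1.10 (SE 0.0916, adjusted p = 1.49e-09), or 2.14-fold lower. Without the library of WTL + JSH23 that stood apart, the latter change was -1.26 (adjusted p = 4.11e-13).

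Adm (ENSMUSG00000030790.15, chromosome 7, 110627661 to 110629820, + strand) encodes the vasodilator peptide adrenomedullin. From 0.398, 0.199 and 0.414 CPM in WT it reached 1.55, 2.20 and 2.53 CPM in WTL, and from 0.123, 0.145 and 0.374 CPM in WT + JSH23 it reached 1.49, 1.43 and 1.04 CPM in WTL + JSH23. Every library with LPS lay above every library without it, at 4 to 66 counts per library. The log2 change was 2.64 (SE 0.325, adjusted p = 3.64e-07) and 2.62 with JSH-23 (SE 0.381, adjusted p = 5.51e-06), the highest of the 9 genes in both settings. An antisense gene, Gm28863, overlaps Adm, and the use of strand in the counting was not stated.

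Ndrg1 (ENSMUSG00000005125.13, chromosome 15, 66929318 to 66969640, - strand), a stress-responsive gene used as a hypoxia marker, read 78.5, 71.8 and 75.7 CPM in WT and 209.8, 213.4 and 187.8 CPM in WTL. With JSH-23 it read 75.0, 80.1 and 82.1 CPM without LPS and 148.1, 149.3 and 157.5 CPM with it. The 2 groups without LPS overlapped, and WTL + JSH23 lay between them and WTL. The rise was 1.44 (SE 0.0508, adjusted p = 4.29e-16) without JSH-23 and 0.94 (SE 0.0511, adjusted p = 1.17e-12) with it.

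The 2 remaining targets fell or had low counts. Bnip3 (ENSMUSG00000078566.8, chromosome 7, 138890836 to 138909519, - strand), a mitophagy receptor, read 17.7, 11.2 and 12.5 CPM in WT, 11.7, 10.8 and 9.44 in WTL, 15.03, 12.4 and 12.8 in WT + JSH23, and 11.4, 11.98 and 11.1 in WTL + JSH23. WT and WTL overlapped, and WT replicate 4 was again the highest library. The LPS change of Bnip3 was -0.37 (SE 0.127, adjusted p = 0.016), and without that library -0.14 (adjusted p = 0.226), so the call rests on it. Without WTL replicate 6 the change of Bnip3 was -0.29 (adjusted p = 0.078). With JSH-23 the LPS change of Bnip3 was -0.23 (SE 0.128, adjusted p = 0.143), and it passed where WT replicate 4 was left out of the shared estimate of the spread (adjusted p = 0.0392). In edgeR it also passed with upper quartile factors (adjusted p = 0.0445), without a filter (adjusted p = 0.0241) and with the 2 groups alone (adjusted p = 0.0421). It did not pass with DESeq2 (adjusted p = 0.167) or with RLE factors in edgeR (adjusted p = 0.16). RSEM divided reads of Bnip3 with other genes in 6 libraries, and the processed pseudogene Gm18258 overlaps it.

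Ankrd37 (ENSMUSG00000050914.16, chromosome 8, 45996902 to 46005707, - strand), an ankyrin repeat gene strongly induced by hypoxia, had 5 to 57 counts per library. It read 1.74, 0.683 and 1.73 CPM in WT, 0.814, 0.333 and 0.506 in WTL, 0.860, 0.326 and 0.579 in WT + JSH23, and 0.319, 0.478 and 0.216 in WTL + JSH23. WT was the highest group, but its replicate 5 lay within the range of the others. The LPS change was -1.32 (SE 0.4, adjusted p = 0.00632) without JSH-23 and -0.81 (SE 0.491, adjusted p = 0.174) with it. Ankrd37 shares its locus with Ufsp2 and Lrp2bp on the other strand, and reads of these genes could be mixed with its own if strand was not used. The expected counts of Ankrd37 were whole numbers in every library, so RSEM divided no reads of it with other genes.

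**Figure D2:**
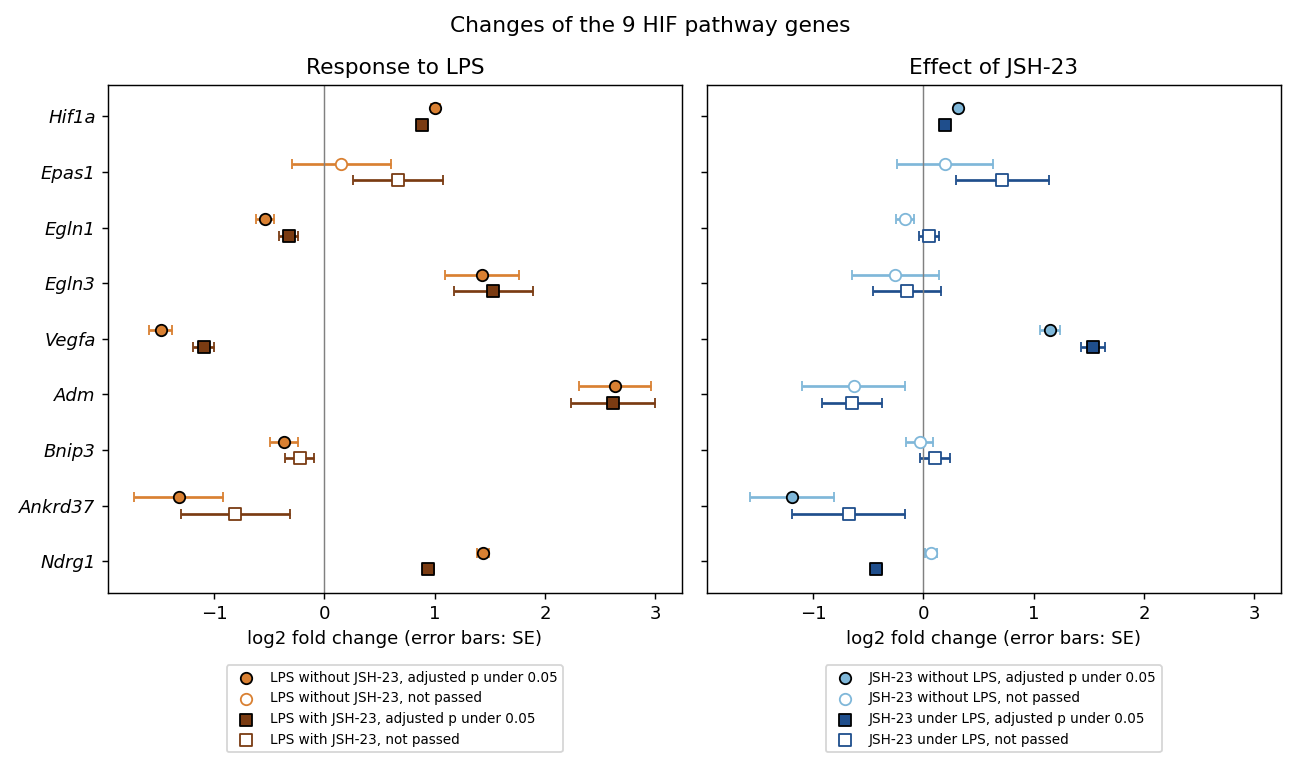
Log2 fold changes (horizontal axis, error bars SE) of the 9 genes by LPS (left) and by JSH-23 (right). Filled symbols passed an adjusted p of 0.05 in the edgeR quasi-likelihood test and open symbols did not. Adm stands furthest right for LPS at 2.64 and 2.62, and Vegfa furthest right for JSH-23 at 1.15 and 1.54.

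Vegfa and, to a lesser extent, Hif1a were higher with JSH-23, both with and without LPS. A difference of culture batch cannot be told apart from the inhibitor in these comparisons. In LPS-treated cells (WTL + JSH23 against WTL), 2 of the 9 genes were higher and 1 lower, beside 24.5% and 24.2% of all genes, and only Vegfa passed 2-fold, beside 3.75% higher and 3.25% lower. In cells without LPS (WT + JSH23 against WT), 2 were higher and 1 lower, beside 18.8% and 22.1%, and at more than 2-fold 1 was higher and 1 lower, beside 2.43% and 2.94%. The medians of the 9 genes were 0.05 and -0.04, and those of all genes 0.02 and -0.01. Comparisons that share a group share its libraries and are not independent.

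Vegfa rose by 1.54 on the log2 scale under LPS (SE 0.109, adjusted p = 1.39e-10) and by 1.15 without LPS (SE 0.0902, adjusted p = 9.79e-10), or 2.9-fold and 2.22-fold. Without the library of WTL + JSH23 that stood apart, the change of Vegfa under LPS was 1.38 (adjusted p = 2.42e-12). Hif1a rose by 0.20 under LPS (SE 0.0418, adjusted p = 0.000506) and by 0.32 without it (SE 0.0422, adjusted p = 2.7e-06). For both genes, every library with JSH-23 lay above every library of the group it was compared with.

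Ndrg1 changed by -0.43 under LPS (SE 0.0492, adjusted p = 2.61e-07), while without LPS its change was 0.07 (SE 0.052, adjusted p = 0.313). Adm libraries of WTL + JSH23 lay below those of WTL, with a change of -0.65 (SE 0.271) that missed the threshold at an adjusted p of 0.0531, and the call depended on the setting. With RLE scaling factors the change of Adm was -0.67 (adjusted p = 0.0453) and without WTL replicate 4 it was -0.83 (adjusted p = 0.0262). Without WT replicate 5, WT + JSH23 replicate 1 or WT + JSH23 replicate 3 the change of Adm was -0.65 and passed, at adjusted p = 0.0474, 0.0495 and 0.0377. Ankrd37 was lower with JSH-23 in cells without LPS, at -1.19 (SE 0.382, adjusted p = 0.0157), but the groups overlapped. Without WT replicate 4 the change of Ankrd37 was -0.98 (adjusted p = 0.0856), without WT replicate 6 it was -1.01 (adjusted p = 0.0759), and without WT + JSH23 replicate 2 it was -0.92 (adjusted p = 0.0833).

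Egln1, Egln3, Bnip3 and Epas1 did not pass in either JSH-23 comparison. Their changes under LPS were 0.05 (SE 0.0902) for Egln1, -0.15 (SE 0.309) for Egln3, 0.10 (SE 0.134) for Bnip3 and 0.72 (SE 0.422) for Epas1. In cells without LPS the change of Egln1 was -0.17 (SE 0.0802, adjusted p = 0.105), and without WT replicate 5 it was -0.26 (adjusted p = 0.0132). The change of Egln3 was -0.26 (SE 0.395, adjusted p = 0.652), and without WT replicate 4 it was 0.83 (adjusted p = 0.0226), so its direction depended on that library.

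The interaction subtracts the LPS change of cells without JSH-23 from that of cells with it and asks whether the response differed between them. Of the 9 genes only Ndrg1 passed, with a smaller rise under JSH-23, and 0 were higher, beside 9.54% of all genes higher and 8.44% lower. The interaction of Ndrg1 was -0.50 (SE 0.0716, adjusted p = 5.37e-05). Vegfa fell less with JSH-23, by 0.39 (SE 0.142), but missed the threshold at an adjusted p of 0.0623. Without WTL + JSH23 replicate 3 the interaction of Vegfa was 0.23 (adjusted p = 0.138). Without WT replicate 5, WT + JSH23 replicate 3, WTL + JSH23 replicate 1 or WTL + JSH23 replicate 2 it was 0.46 to 0.48 and passed. In edgeR it also passed without a filter (adjusted p = 2.91e-05) and with a mean of at least 1 CPM (adjusted p = 0.0477). With limma on log2(TPM + 0.1) it passed (adjusted p = 0.0414). It did not pass with DESeq2 (adjusted p = 0.169) or with RLE or upper quartile factors in edgeR (adjusted p = 0.0794 and 0.0614). The interaction of Hif1a was -0.12 (SE 0.0594, adjusted p = 0.181) and that of Egln1 0.21 (SE 0.121, adjusted p = 0.246). Without WT replicate 4 the interaction of Egln3 was -0.99 (adjusted p = 0.0477) in place of 0.10 (SE 0.5). A missed threshold does not show that the responses were equal.

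Levels were compared between genes on the deposited TPM, which account for transcript length. Hif1a was the most abundant of the 9 in each group, at 133 ± 4.04 TPM in WT, 209 ± 10.04 in WTL, 164 ± 6.48 in WT + JSH23 and 265 ± 12.9 in WTL + JSH23 (SD, n = 3), above 92.5% to 96.1% of the genes tested. In WT, Ndrg1 (47.5 ± 2.46 TPM) and Vegfa (45.01 ± 4.62 TPM) followed with overlapping libraries. LPS separated them, to 101 ± 4.85 TPM for Ndrg1 and 13.5 ± 0.86 TPM for Vegfa. In WT + JSH23 the order was turned, with Vegfa at 94.0 ± 7.29 TPM above Ndrg1 at 49.3 ± 2.20 TPM, and in WTL + JSH23 Ndrg1 was again above Vegfa, at 82.5 ± 2.69 against 40.2 ± 5.50 TPM.

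Bnip3 and Egln1 came next in every group, at 16.2 ± 4.29 and 11.99 ± 1.47 TPM in WT with overlapping libraries and at 9.83 ± 1.40 and 6.56 ± 0.50 TPM in WTL without overlap. Ankrd37, Egln3 and Adm took the ranks below, with means between 0.30 and 4.20 TPM. In WTL the libraries of Adm overlapped those of Egln3, and those of Egln3 overlapped those of Ankrd37. Epas1 was the lowest in each group, with means between 0.10 and 0.23 TPM, more than 2 orders of magnitude under Hif1a, and its libraries overlapped those of Adm in the groups without LPS.

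**Figure D3:**
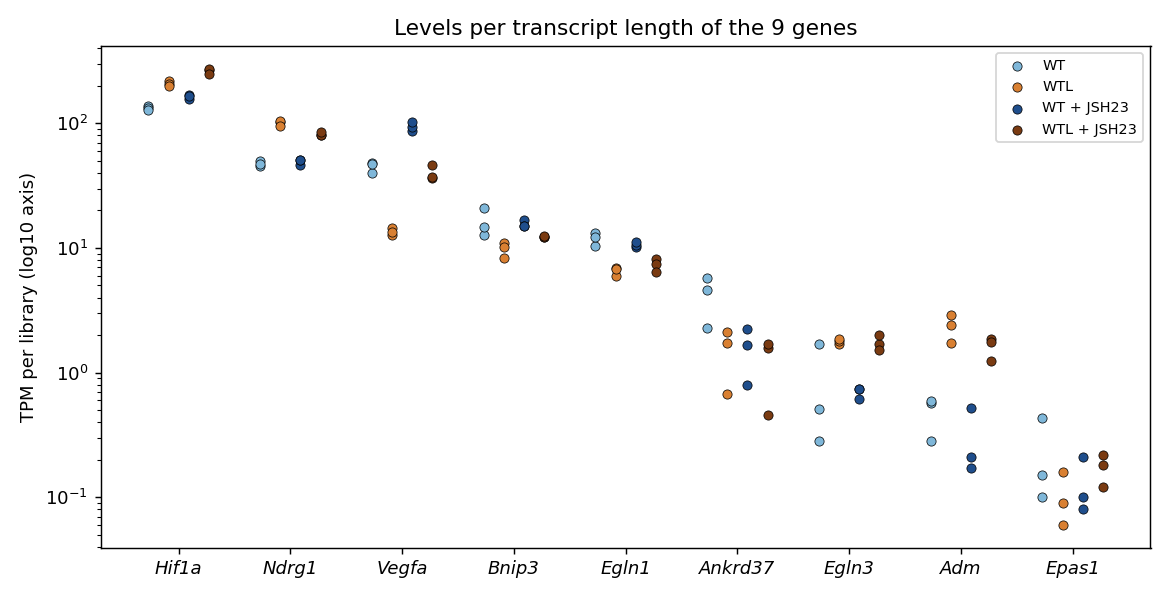
TPM per library (log10 axis) of the 9 genes, ordered by their mean in WT, with 3 points for each group. Hif1a lies above 100 TPM in all 12 libraries and Epas1 below 1 TPM in all 12, and Ndrg1 and Vegfa exchange order between WTL and WT + JSH23.

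The rest of the machinery was followed in a list of 18 HIF pathway components, of which 17 were tested. With LPS, 7 rose and 4 fell, with a median log2 change of 0.09, beside 31.0% and 34.7% of all genes. Cited2, a competitor of HIF for its coactivator, rose by 1.72 (SE 0.0448, adjusted p = 2.57e-18) and Siah2, a ligase that degrades prolyl hydroxylases, by 1.45 (SE 0.0625, adjusted p = 1.21e-14). Vhl, the ligase subunit that recognises hydroxylated HIF, changed by -1.12 (SE 0.0527, adjusted p = 5.95e-14) and Usp20, a deubiquitinase of HIF-1α, by -0.84 (SE 0.0887, adjusted p = 3.89e-08). Vhl read 114.8, 113.5 and 117.2 CPM in WT against 52.96, 50.63 and 56.08 CPM in WTL, and the groups did not overlap. With JSH-23, 5 components rose and 3 fell with LPS, with a median of -0.02, beside 27.4% and 27.1% of all genes.

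Cited2 was lower with JSH-23, at -1.18 under LPS (SE 0.0441, adjusted p = 7.34e-15) and -0.59 without LPS (SE 0.0481, adjusted p = 1.92e-09). Arnt2, a relative of the HIF partner ARNT, was higher by 0.92 (SE 0.231, adjusted p = 0.00222) and 1.23 (SE 0.214, adjusted p = 7.42e-05). At 0.797 to 3.26 CPM, Arnt2 lost the call under LPS with limma on log2(TPM + 1) and log2(TPM + 0.1) (adjusted p = 0.0714 and 0.0645) and the call without LPS on log2(TPM + 0.1) (adjusted p = 0.0508). Under LPS 3 components were higher and 6 lower with JSH-23, with a median of -0.07, beside 24.5% and 24.2% of all genes. Without LPS 5 were higher and 3 lower, with a median of 0.08, beside 18.8% and 22.1%. The interaction passed for 7 components, 2 higher and 5 lower, beside 9.54% and 8.44% of all genes, including Siah2 at -0.72 (SE 0.0904, adjusted p = 1.08e-05), Cited2 at -0.59 (SE 0.0651, adjusted p = 2.51e-06) and Vhl at 0.31 (SE 0.075, adjusted p = 0.00693). Arnt itself, named for its role after its values were seen, changed by 0.09 with LPS (SE 0.05, adjusted p = 0.115) and by -0.03 with LPS and JSH-23 (SE 0.0501, adjusted p = 0.608).

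Of 35 other hypoxia targets, 31 were tested. With LPS 10 rose and 13 fell, with a median of -0.09, beside 31.0% and 34.7% of all genes. In cells given JSH-23, 11 rose and 13 fell, with a median of 0.01, beside 27.4% and 27.1%. Lox, a collagen crosslinking oxidase, rose by 2.40 (SE 0.0684, adjusted p = 1.17e-17) and by 1.94 with JSH-23 (SE 0.0708, adjusted p = 1.38e-15). Cxcr4, a chemokine receptor, fell, with changes of -2.70 (SE 0.0809, adjusted p = 2.57e-17) and -1.66 (SE 0.0677, adjusted p = 8.83e-15). With JSH-23 under LPS, 13 of these targets were higher and 8 lower, with a median of 0.10, beside 24.5% and 24.2% of all genes. Among the higher were Cxcr4 at 1.62 (SE 0.0878, adjusted p = 2.05e-12) and Bhlhe41, a transcriptional repressor, at 1.25 (SE 0.055, adjusted p = 8.65e-14). Without LPS 9 were higher and 8 lower, with a median of 0.02, beside 18.8% and 22.1%, and Tfrc, the transferrin receptor, changed by -1.13 (SE 0.09, adjusted p = 1.17e-09). The interaction passed for 7 higher and 3 lower, beside 9.54% and 8.44%, with Cxcr4 at 1.03 (SE 0.108, adjusted p = 1.48e-06) and Lox at -0.45 (SE 0.101, adjusted p = 0.00345). The interaction of Lox did not pass with limma on log2(TPM + 1) or log2(TPM + 0.1) (adjusted p = 0.126 and 0.147).

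All 20 glycolytic hypoxia targets were tested. With LPS 4 rose and 7 fell, with a median of -0.07, beside 31.0% and 34.7% of all genes. More than 2-fold, 0 rose and 1 fell, beside 7.36% and 9.09%. In cells given JSH-23, 4 rose and 6 fell, with a median of -0.03, beside 27.4% and 27.1%. The glucose transporter gene Slc2a1 rose by 0.55 (SE 0.0469, adjusted p = 1.2e-09), whereas Pfkfb4, a regulator of phosphofructokinase, changed by -1.61 (SE 0.0746, adjusted p = 4.18e-14) and Pdk1, the kinase that inhibits pyruvate dehydrogenase, by -0.82 (SE 0.129, adjusted p = 1.07e-05). With JSH-23 under LPS, 6 of them were higher and 10 lower, with a median of -0.08, beside 24.5% and 24.2% of all genes. Without LPS 5 were higher and 10 lower with JSH-23, with a median of -0.19, beside 18.8% and 22.1%. Pfkl, the liver-type phosphofructokinase subunit, changed with JSH-23 by -0.74 under LPS (SE 0.0719, adjusted p = 1.97e-08) and by -0.78 without it (SE 0.0698, adjusted p = 7.51e-09). The interaction passed for 2 higher and 2 lower, beside 9.54% and 8.44%.

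**Figure D4:**
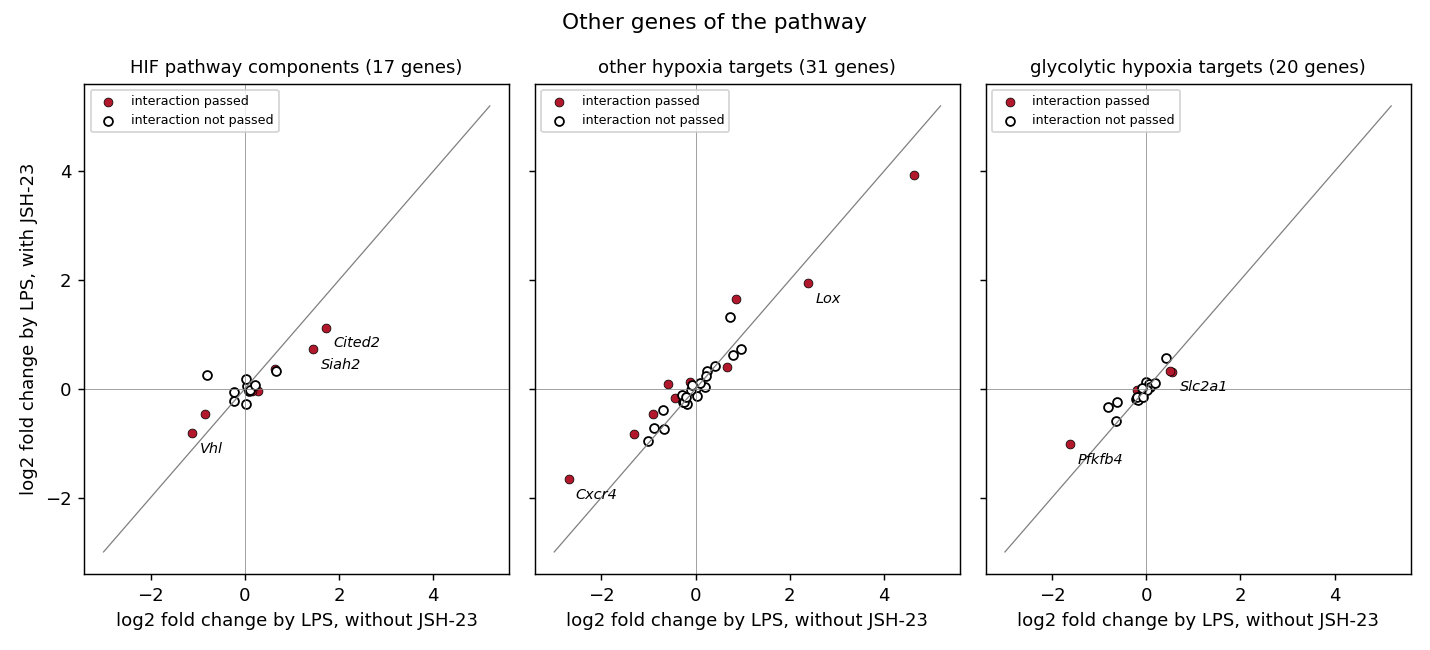
Log2 fold changes by LPS without JSH-23 (horizontal axis) and with JSH-23 (vertical axis) for the tested genes of 3 lists, with the line of equal change. Red points passed the interaction test at an adjusted p of 0.05. Lox lies at 2.40 and 1.94 and Cxcr4 at -2.70 and -1.66.

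The genes whose pattern over the 12 libraries was most like each member were searched among 8849 protein-coding genes by the root mean square (rms) difference of centred log2 CPM, as a description. For Hif1a they were Ktn1 (0.053) and Ppfia1 (0.073), against an rms of 0.492 for Hif1a itself. Ndrg1 was closest to Nudt9 (0.063) and Arhgap26 (0.070), Vegfa to Klhl21 (0.124) and Jade1 (0.165), Egln1 to Tor1a (0.088) and Ncbp2 (0.099), and Bnip3 to Pdcd2 (0.127) and Uhrf1 (0.133). The low-count genes had larger nearest differences, at 0.356 for Epas1 (Lama5), 0.359 for Adm (Ston1), 0.430 for Ankrd37 (Pdk1) and 0.470 for Egln3 (Siglecg). The rms of the gene itself was 0.510 for Epas1, 1.295 for Adm, 0.809 for Ankrd37 and 0.951 for Egln3. It was 0.615 for Ndrg1, 0.942 for Vegfa, 0.248 for Egln1 and 0.222 for Bnip3. The differences therefore do not rank closeness relative to a gene's own variation. Only genes with a mean of at least 5 CPM were searched, which among the 9 are Hif1a, Egln1, Vegfa, Bnip3 and Ndrg1, and none of these was among the nearest 2 of another.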

How the data were processed

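RNA-seq was analysed for 12 BMDC libraries in 4 groups of 3, grouped by their titles. The labels name a ribosomal depletion kit and the study's methods a polyA kit, which was not settled here. The authors trimmed reads with Trim Galore, aligned them to mm10 with STAR (2.6.0c per the labels) and estimated genes with RSEM, on a GENCODE release not given in the sources used here. Expected counts, as deposited, are unnormalized and divide reads that fit several genes. The deposited TPM values are scaled by the authors for transcript length and library total. Symbols and positions came from GENCODE M21 (GRCm38), which matched 55154 of 55335 identifiers without version.

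Expected counts were rounded, filtered with filterByExpr (14357 genes) and scaled by TMM (factors 0.859 to 1.121). The edgeR 4.0.16 quasi-likelihood test (R 4.3.3) was fitted to the 12 libraries with a mean per group and 8 residual degrees of freedom, with Benjamini-Hochberg adjustment over all genes tested and a threshold of 0.05. SE is the change divided by the square root of F. The script was tested on simulated data. Alternatives were DESeq2 1.42.0, RLE and upper quartile scaling, other filters, limma 3.58.1 on log2(TPM + 1) and log2(TPM + 0.1), each library left out, a replicate block, and each pair of groups alone. The study's methods call the replicates biological. The p values set differences between groups against the spread between these libraries, estimated over the 4 groups. Members, lists and tests were chosen with earlier results of these data known. All 9 members are named, and from each list the 2 highest and 2 lowest log2 changes past the threshold in each comparison could be named, of which some are given and 1 is not reported here. The 2 genes most like each member had a mean of at least 5 CPM.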

Additional observations from a re-analysis of the deposited data

Results flagged for a closer look

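The response of Ndrg1 to LPS differed between cells without and with JSH-23, by an interaction of -0.497 on the log2 scale (SE 0.0716, adjusted p = 5.37e-05 by edgeR). Ndrg1 stood at 75.3 ± 3.34 CPM in WT and 203.6 ± 13.9 CPM in WTL, against 79.0 ± 3.63 CPM in WT + JSH23 and 151.7 ± 5.14 CPM in WTL + JSH23 (SD, n = 3). The interaction passed in each of the 12 fits that left out a library, between -0.552 and -0.461. The groups without and with JSH-23 carry different replicate numbers, so a batch and the inhibitor cannot be told apart. Groups of 3 libraries were not tested for outlying samples.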

How the results depend on the processing

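Of 900 values of the 9 genes under alternatives, 845 kept their direction and side of the threshold, 6 no longer passed, 23 newly passed and 26 changed sign, of which 24 did not pass under the alternative. The counts of genes changed by LPS with JSH-23 and by JSH-23 under LPS stayed within 1.5 times. The cause of the changes below was not tested. More than 2-fold changes by LPS numbered 3 where a mean of at least 1 CPM was required, 2 higher and 1 lower, against 4 and 2 in the main fit. That filter leaves fewer of the 9 genes tested, and Hif1a sat at the 2-fold line in the main fit, at 1.004. More than 2-fold changes by JSH-23 without LPS numbered 1 under that filter and under limma on either TPM scale, and 1 to 2 with a library left out. Genes with an interaction numbered 2 without a filter, with a mean of at least 1 CPM, under limma on log2(TPM + 0.1) and with a replicate block, and 1 to 2 with a library left out.

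Changes of sign concerned small or low-count changes. On log2(TPM + 1) and log2(TPM + 0.1), the LPS change of Epas1 was -0.144 and -0.582, its JSH-23 change without LPS -0.111 and -0.416, and the interaction of Hif1a 0.038 and 0.037. On log2(TPM + 0.1) the JSH-23 change of Egln3 without LPS was 0.085, its interaction -0.123 and that of Adm 0.081. With a library left out, the ranges that crossed 0 were -0.255 to 0.429 for Epas1 with LPS and -0.313 to 0.487 for Epas1 with JSH-23 without LPS, -0.022 to 0.129 for Egln1 with JSH-23 under LPS, -0.694 to 0.834 and -0.172 to 0.186 for Egln3 and Bnip3 with JSH-23 without LPS, and -0.986 to 0.542, -0.317 to 0.641 and -0.082 to 0.277 for the interactions of Egln3, Adm and Bnip3. Without WTL + JSH23 replicate 3 the interaction of Adm was 0.122, and every other member kept its direction and side of the threshold.

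The numbers are shared within WT and WTL and within the JSH-23 groups, but same-numbered libraries deviated together only weakly, with correlations of 0.014 to 0.061 over genes, under the 0.1 required to call them pairs. In WT and WTL each library correlated best with its own number, and WT + JSH23 replicate 1 did not. With the replicate block the interaction of Vegfa (0.379, adjusted p = 0.00326) and the LPS change of Bnip3 with JSH-23 (-0.225, adjusted p = 0.0487) passed, and the interaction of Egln3 was -0.035. No paired analysis was possible for the JSH-23 comparisons because the groups share no number. The depth limits Epas1, Adm, Ankrd37 and Egln3, which had at most 102 counts in a library.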
